A study of Oryctolagus cuniculus with 134 samples.

Results

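The aortic valve (AoV) and the pulmonary valve (PV), the outflow valves of the left and of the right ventricle, were compared in rabbits on standard chow. The libraries were chosen by their labels: those of the Control treatment whose tissue was the AoV or the PV, paired by the animal number in the library name. They were 14 of the 134 libraries of the series, 7 AoV and 7 PV, and each of the 7 rabbits gave both valves. Rabbits are called A to G here, in the order of their animal numbers. They were male New Zealand White animals without vitamin D2 or irradiation, 12 weeks old at the start of a protocol of 16 weeks. The study sequenced total RNA of the proximal aorta and the 4 heart valves to compare the effects of diets and cardiac irradiation. Each library started from 10 ng of RNA, and its read pairs assigned to genes numbered 13978094 to 20806309 (median 16389191). For comparison, the chow libraries of 6 mitral valves (MV), 7 tricuspid valves (TV) and 7 aortas (Ao) were used, and the 14 AoV and PV libraries of 7 rabbits whose diet held 5% lard and which received vitamin D2 at 25000 U daily over 15 days (Lard).

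A semilunar valve leaflet consists of a collagen-rich fibrosa, a proteoglycan-rich spongiosa and an elastin-rich ventricularis. Interstitial cells of the fibroblast kind populate these layers, and endothelium covers both surfaces. The aortic valve closes against systemic pressure and is the usual site of calcific valve disease, whereas the pulmonary valve closes against a much lower pressure and seldom calcifies. In whole-valve RNA, fewer cells of a type and less RNA per cell cannot be told apart.

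Both tissues expressed valve genes. The valve transcription factor TBX20 had a mean of 401.8 ± 56.1 CPM (read pairs scaled to the size of the library) in the AoV and of 309 ± 30.1 in the PV, against 9.17 ± 2.56 CPM in the Ao (SD, n = 7 each). Some libraries stood apart, however. The AoV libraries of rabbits A, B and F had 0.0514%, 0.101% and 0.0389% of their counts on mRNAs of the mitochondrial genome, against 0.271% to 1.82% in the other 11 libraries. The AoV of rabbit D had an endothelium score of 2.92, a score being the mean log2 CPM over a list of marker genes, against 4.59 to 5.82 in the other AoV and 5.53 to 5.92 in the PV. Heart muscle scores ranged from 2.53 to 7.31 in the AoV and from 0.83 to 6.16 in the PV and overlapped widely. Finally, all libraries were placed on an axis along which libraries of the same tissue and treatment differed from each other, computed without the chow and Lard libraries of these valves. It held 23.2% of that variance. Its low end was led by PKHD1L1 and mitochondrial genes, with PTPRB and EMCN further down. Its high end was led by CSPG4, AP5B1, C15orf39, CAPN15 and TTYH3, with the matrix genes COL2A1 and LOXL1 further down. The AoV libraries lay at 0.04 to 2.84 on this axis and the PV libraries at -1.45 to -0.74, without overlap. A difference of the valves and a difference of the libraries along this axis cannot be told apart in this design.

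**Figure D1:**
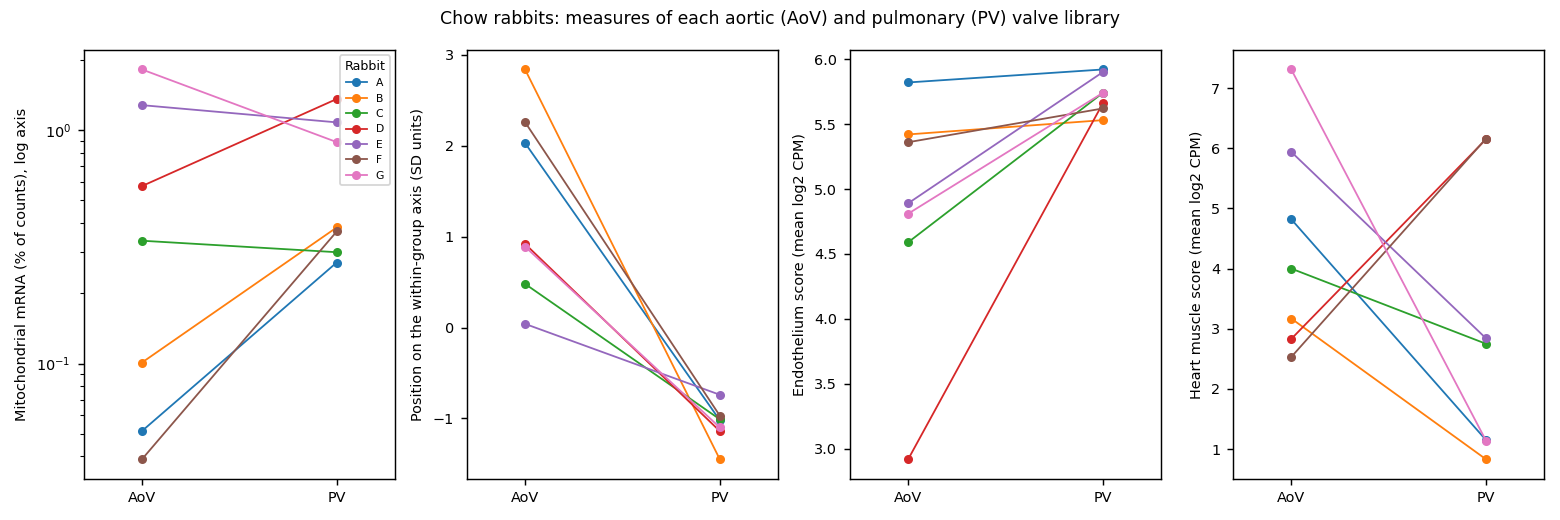
Mitochondrial mRNA share (percent of counts, log axis), position on the within-group axis (SD units), endothelium score and heart muscle score (mean log2 CPM) of each chow AoV and PV library, with a line for each rabbit. The AoV of A, B and F had the lowest mitochondrial shares, the AoV of D had the lowest endothelium score (2.92), and every AoV lay above every PV on the axis.

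Of 13687 genes tested, 6609 (48.3%) were differentially expressed (DEGs) between the valves, at an adjusted p under 0.05 in edgeR's quasi-likelihood test with the rabbit as a block and a fold change over 1.5. Expression in the AoV was higher for 4019 genes (29.4%) and lower for 2590 (18.9%), and the median log2 fold change over all genes was -0.02. In 2527 genes (18.5%) every AoV library lay above every PV library, and in 1493 (10.9%) every one lay below. Genes named below were largely chosen by p or size of change in these libraries. Their lack of overlap is to be read against these shares and is no separate support. Without rabbits A, B and F, 2612 genes (18.8%) were higher and 467 (3.35%) lower. Of the 6609 DEGs, 2927 were called again in the same direction, and all of the 6579 that were tested kept their sign. In the 5 rabbits with both valves on 1 plate, 1519 of 13749 genes (11.0%) were higher, and 1.78% were lower. When the axis was a covariate, 12 genes (0.0877%) were called, although 2307 had an unadjusted p under 0.05, and 2823 of the 6609 DEGs kept their sign. The median standard error grew 1.54-fold in that fit, and the median size of a log2 fold change fell from 0.68 to 0.36. Of the 12 genes, 7 were among the 6609 DEGs, so the gene values below are given with this limit.

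**Figure D2:**
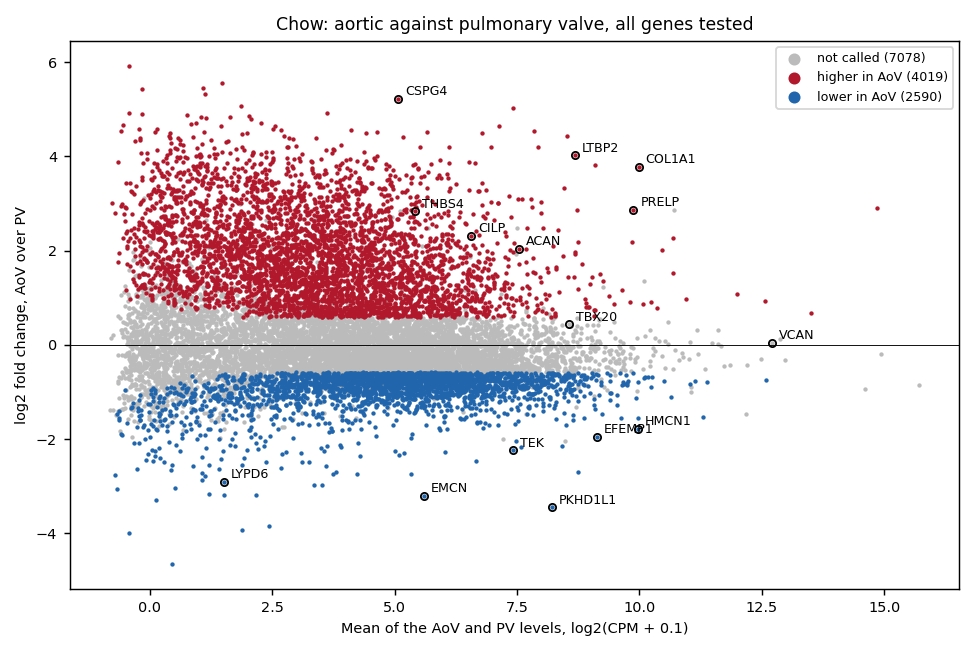
log2 fold change of the AoV over the PV against the mean of both levels, log2(CPM + 0.1), for the 13687 genes tested in chow rabbits. Red points are the 4019 genes higher and blue points the 2590 genes lower in the AoV, with the labels CSPG4, LTBP2 and COL1A1 among the former and PKHD1L1, EMCN and TEK among the latter.

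Several matrix genes of the cartilage and proteoglycan kind were higher in the AoV. CILP, a matrix protein of the intermediate layer of cartilage, was at 134 to 386 CPM in the AoV (median 163) and at 26.0 to 70.1 in the PV (median 34.7). It had the smallest p of all genes, with a log2 fold change of 2.31 ± 0.12 (SE, adjusted p = 0.000126). THBS4, a thrombospondin of tendon and stressed heart matrix, was at 68.9 to 233.5 CPM in the AoV (median 105) and at 8.01 to 33.8 in the PV (median 14.8), a log2 fold change of 2.83 ± 0.18 (adjusted p = 0.000568). For both genes all 7 rabbits had the higher level in the AoV and the groups did not overlap.

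ACAN, the large aggregating proteoglycan of cartilage, was at 241.2 to 655 CPM in the AoV (median 295) and at 67.6 to 115 in the PV (median 85.5). Its log2 fold change was 2.04 ± 0.17 (adjusted p = 0.00183). LTBP2, a microfibril-associated protein, was at 538 to 3648 CPM in the AoV (median 1152) and at 65.8 to 120 in the PV (median 94.5), a log2 fold change of 4.02 ± 0.43 (adjusted p = 0.002). CILP, THBS4, ACAN and LTBP2 were the named genes still called with the axis as a covariate, at log2 fold changes of 1.95, 2.30, 1.17 and 1.69 (adjusted p = 0.000919 for CILP and 0.0205 for the others). The small leucine-rich proteoglycan BGN was at 721 to 1234 CPM in the AoV and 160.8 to 292 in the PV, and PRELP at 1142 to 3881 and 230 to 451. Their log2 fold changes were 2.19 ± 0.18 and 2.86 ± 0.28 (adjusted p = 0.00183 and 0.002). Neither overlapped between the valves, and with the axis as a covariate neither passed (1.54, adjusted p = 0.0909, and 1.47, adjusted p = 0.101).

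**Figure D3:**
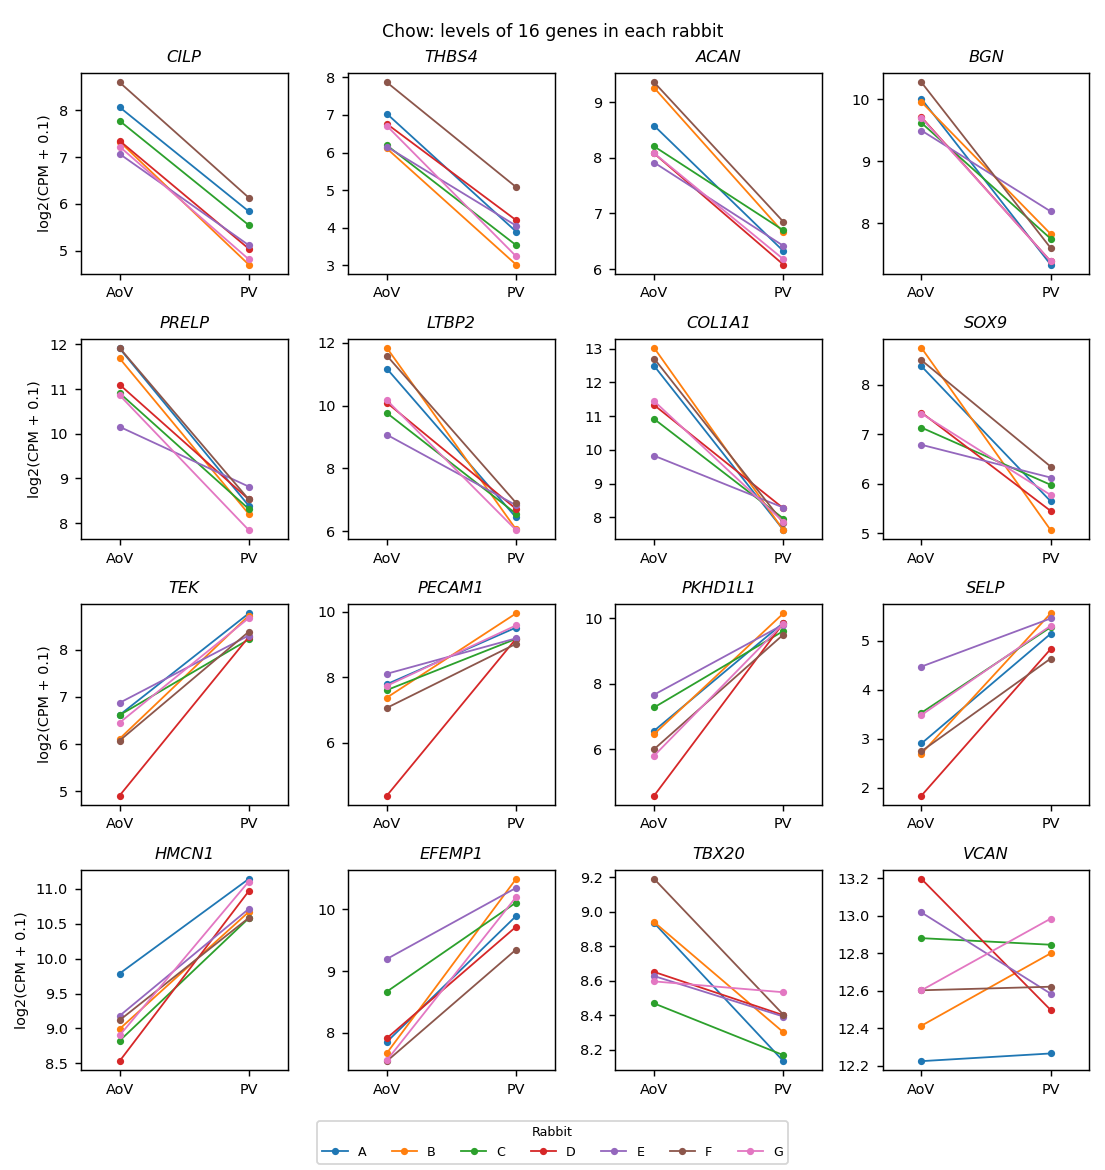
Levels of 16 genes, log2(CPM + 0.1), in the AoV and PV of each chow rabbit, with a line for each of the 7 rabbits. The matrix genes CILP to SOX9 were higher in every AoV and the genes TEK to EFEMP1 lower, whereas the fitted change of TBX20 was less than 1.5-fold and VCAN had no common direction.

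Of 24 genes tested in a list of cartilage and bone genes, 14 (58.3%) were higher and 4 (16.7%) lower in the AoV, against 29.4% and 18.9% of all genes, with a median log2 fold change of 0.65. The higher genes included the chondrogenic transcription factor SOX9, at 111 to 431 CPM in the AoV (median 173.8) and 33.3 to 81.4 in the PV (median 54.6), a log2 fold change of 1.99 ± 0.34 (adjusted p = 0.00291). COL2A1, the main cartilage collagen, was at 2.99 to 35.5 CPM in the AoV and 0.59 to 3.23 in the PV, and COL11A2 at 11.6 to 154.1 and 1.74 to 6.94. Their log2 fold changes were 3.21 ± 0.55 and 3.32 ± 0.54 (adjusted p = 0.00288 and 0.00261), and the valves overlapped slightly for COL2A1 only. BGLAP, which encodes osteocalcin, was at 12.86 to 39.96 CPM and 2.04 to 11.3 (2.22 ± 0.23, adjusted p = 0.002). The lower share was near that of all genes, and its 4 genes, ENPP1, MGP, PHEX and UCMA, were named after their values were seen because they were few. MGP, an inhibitor of calcification, was at 806 to 2939 CPM in the AoV (median 2113) and at 2335 to 3966 in the PV (median 2652), and lower in the AoV of all 7 rabbits (-0.76 ± 0.21, adjusted p = 0.0165). Without the 3 rabbits above, 11 genes of the list were higher and 0 lower, against 18.8% and 3.35% of all genes, and MGP was not a DEG (-0.31, adjusted p = 0.0281, a fold change under 1.5). Given the axis, 2 were higher and 0 lower.

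No collagen was lower. Of 30 collagen genes tested, 18 (60.0%) were higher in the AoV, against 29.4% of all genes, with a median log2 fold change of 1.08 against -0.02 over all genes. In the other 4 rabbits 18 of 29 were higher, against 18.8% of all genes (median 1.18). COL1A1, a chain of the main fibrillar collagen, was at 908 to 8341 CPM in the AoV (median 2791) and at 196.9 to 313 in the PV (median 233.6), a log2 fold change of 3.77 ± 0.50 (adjusted p = 0.00205). Without rabbits A, B and F the fold change of COL1A1 was 2.79 (adjusted p = 0.0147). COL1A2, the partner chain of COL1A1 in type I collagen, differed less, with 1809 to 4121 CPM in the AoV and 800 to 1095 in the PV (1.53 ± 0.17, adjusted p = 0.002). The minor fibrillar chain gene COL5A3 was at 5.01 to 79.0 and 0.65 to 1.91 CPM (4.10 ± 0.40, adjusted p = 0.002). COL15A1, a basement membrane zone collagen, had medians of 320.6 and 46.8 CPM (2.65 ± 0.30, adjusted p = 0.002). The groups overlapped in none of these 4 genes, and in 18.5% of all genes every AoV library lay above every PV library. The collagen list lost all 18 calls with the axis as a covariate, where its median was 0.53.

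Other matrix lists were mixed. Of 32 proteoglycan and hyaluronan genes, 10 (31.2%) were higher and 3 (9.38%) lower, close to the 29.4% of all genes for the higher and below the 18.9% for the lower, with a median of 0.08. In the other 4 rabbits the counts were also 10 and 3 of 32, against 18.8% and 3.35% of all genes (median 0.19). VCAN, the main proteoglycan of the valve spongiosa, had 4786 to 9390 CPM in the AoV (median 6220) and 4925 to 8108 in the PV (median 6304), and its log2 fold change of 0.05 ± 0.15 was smaller than its error (adjusted p = 0.804). Of the fibroblast proteoglycan genes DCN and LUM, neither was a DEG (-0.99 ± 0.40, adjusted p = 0.0591, and -0.92 ± 0.51, adjusted p = 0.147). DCN was lower in the AoV by 1.88 to 2.77 on the log2 scale in rabbits A, B and F and differed by -0.38 to 0.22 in the other 4 rabbits. Of 20 genes of elastic fibers and cross-linking, 10 (50%) were higher and 2 (10.0%) lower, against 29.4% and 18.9% of all genes. They included FBLN1, a fibulin of the elastic matrix, higher at 1.72 ± 0.20 (adjusted p = 0.002), and the collagen cross-linking enzyme gene LOXL2, higher at 1.92 ± 0.23 (adjusted p = 0.002). Of 16 matricellular genes, 7 (43.8%) were higher and 3 (18.8%) lower, against the same 29.4% and 18.9%.

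Some matrix genes were lower in the AoV. HMCN1, a large fibulin-family protein, was at 370 to 883 CPM in the AoV (median 509) and at 1529 to 2261 in the PV (median 1677), a log2 fold change of -1.77 ± 0.16 (adjusted p = 0.002). EFEMP1, or fibulin-3, was at 186.6 to 586 CPM in the AoV (median 231.8) and at 652 to 1438 in the PV (median 1104), with -1.95 ± 0.22 (adjusted p = 0.002). Both were lower in all 7 rabbits without overlap, and both were called again without the 3 rabbits (-1.99 and -1.76). Given the axis, neither passed (-1.98, adjusted p = 0.0548, and -1.06, adjusted p = 0.178). Of 33 matrix protease and inhibitor genes, 14 (42.4%) were higher and 3 (9.09%) lower, against 29.4% and 18.9% of all genes. MMP2, a gelatinase, was higher at 1.04 ± 0.13 (adjusted p = 0.002), with medians of 957 CPM in the AoV and 473 in the PV. The aggrecanase gene ADAMTS5 was lower at -0.85 ± 0.15 (adjusted p = 0.00308), with 21.7 to 37.9 and 44.8 to 67.0 CPM, and its levels did not overlap either. ADAMTS19, in which human mutations cause valve disease, was not a DEG (-0.20 ± 0.18, adjusted p = 0.355).

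Of 15 endothelial marker genes tested, 7 (46.7%) were lower in the AoV (CDH5, EMCN, ERG, FLT1, KDR, PECAM1 and TEK) and 1 (6.67%), ENG, was higher, against 18.9% lower and 29.4% higher among all genes. The median log2 fold change of the list was -0.68. The endothelium score was lower in the AoV of all 7 rabbits, at 4.83 ± 0.94 against 5.73 ± 0.14 (SD, n = 7). TEK, the angiopoietin receptor TIE2, was at 29.9 to 117 CPM in the AoV (median 87.6) and at 298 to 437 in the PV (median 334), a log2 fold change of -2.24 ± 0.23 (adjusted p = 0.002). PECAM1, the junction protein CD31, was at 20.8 to 274.8 CPM in the AoV (median 194.6) and at 518 to 986 in the PV (median 581.4), with -2.15 ± 0.40 (adjusted p = 0.00395). The VEGF receptor gene KDR was at 1.79 to 39.8 and 32.5 to 98.3 CPM (-2.35 ± 0.39, adjusted p = 0.00274). TEK and PECAM1 did not overlap between the valves, whereas KDR overlapped slightly.

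The AoV of rabbit D had the lowest endothelium score. Without this rabbit, 7 genes of the list were lower and 1 higher, CDH5, PECAM1 and TEK remained called, and the median of the list moved from -0.68 to -0.38. Without rabbits A, B and F, 6 of 15 were lower and 0 higher, against 3.35% and 18.8% of all genes, the median was -1.37, and TEK remained called (-2.15, adjusted p = 0.0216) while PECAM1 kept its size but was not called (-2.21, adjusted p = 0.138). The list moved unequally in those 3 rabbits. NOS3, the endothelial nitric oxide synthase, was higher in their AoV by 0.75 to 2.06 on the log2 scale and lower by 1.01 to 1.60 in the other 4, so that it was not a DEG over all 7 rabbits (-0.29 ± 0.50, adjusted p = 0.635) and was lower without the 3 (-1.37, adjusted p = 0.00308). Given the axis, no gene of the list was called, with a median of -1.86. Among genes of lymphatic endothelium, PROX1, their defining transcription factor, which valve endothelium also expresses, was lower in the AoV, at 29.7 to 75.5 against 79.9 to 130 CPM (-1.07 ± 0.20, adjusted p = 0.00395), and was the 1 gene lower of 5 tested in its list, near the 18.9% of all genes, with 0 higher. In the other 4 rabbits 2 of the 5 were lower, and given the axis 1 was.

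Other genes lower in the AoV included PKHD1L1, SELP and TXNIP. PKHD1L1, a large transmembrane protein, was at 24.0 to 204 CPM in the AoV (median 88.6) and at 724 to 1132 in the PV (median 912), a log2 fold change of -3.44 ± 0.38 (adjusted p = 0.002). SELP, the adhesion receptor P-selectin, was at 3.47 to 22.1 CPM in the AoV and 24.8 to 47.1 in the PV (-2.08 ± 0.25, adjusted p = 0.002). TXNIP, a thioredoxin-binding protein whose expression falls under steady laminar flow, was at 119 to 252 and 292 to 453 CPM (-1.15 ± 0.12, adjusted p = 0.002). None of these 3 overlapped, and in 10.9% of all genes every AoV library lay below every PV library. In the list of flow-responsive endothelial genes, 5 of 16 (31.2%) were lower (CAV1, EDN1, S1PR1, SELP and TXNIP), against 18.9% of all genes, and 3 (18.8%) were higher (HMOX1, ICAM1 and TRPV4), against 29.4%. The mechanosensitive channel gene TRPV4 was at 3.93 to 28.3 CPM in the AoV and 0.54 to 2.15 in the PV (3.32 ± 0.35, adjusted p = 0.002).

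Of 30 transcription factors of valve and outflow tract development tested, 11 (36.7%) were higher in the AoV and 2 (6.67%) lower, against 29.4% and 18.9% of all genes. The median log2 fold change was 0.46. Without the 3 rabbits 9 of 29 were higher and 1 lower, against 18.8% and 3.35% of all genes (median 0.26), and given the axis none was called (median 0.03). Besides SOX9, the higher genes included PRRX1, a mesenchymal homeobox factor, at 224 to 356 CPM in the AoV (median 268.7) and 132 to 164 in the PV (median 149), with 0.91 ± 0.12 (adjusted p = 0.00204). GATA4, a cardiac zinc finger factor, was at 76.3 to 264.5 CPM and 42.3 to 54.2 (1.52 ± 0.27, adjusted p = 0.00317). MSX2 was at 5.56 to 8.63 and 2.35 to 5.00 CPM (1.27 ± 0.22, adjusted p = 0.00286). None of these 3 overlapped, and in 18.5% of all genes every AoV library lay above every PV library. Given the axis, GATA4 and SOX9 differed by -0.03 and 0.04 (adjusted p = 0.958 and 0.951). TBX20 had 354 to 585 CPM in the AoV and 281 to 370 in the PV and was higher in the AoV of all 7 rabbits. Its fitted change was less than 1.5-fold (0.44 ± 0.13, adjusted p = 0.0182). The log2 difference was 0.64 to 0.80 in rabbits A, B and F and 0.06 to 0.30 in the others. Without the 3 rabbits the fitted difference was 0.20 (adjusted p = 0.0631). HAND2 differed by 0.20 ± 0.11 (adjusted p = 0.136) and TBX5 by 1.15 ± 0.71 (adjusted p = 0.189). AGTR1 did not pass the filter on low counts. NOTCH1, NFATC1, GATA5, GATA6, KLF2, ELN and SMAD6 were not analysed here.

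**Figure D4:**
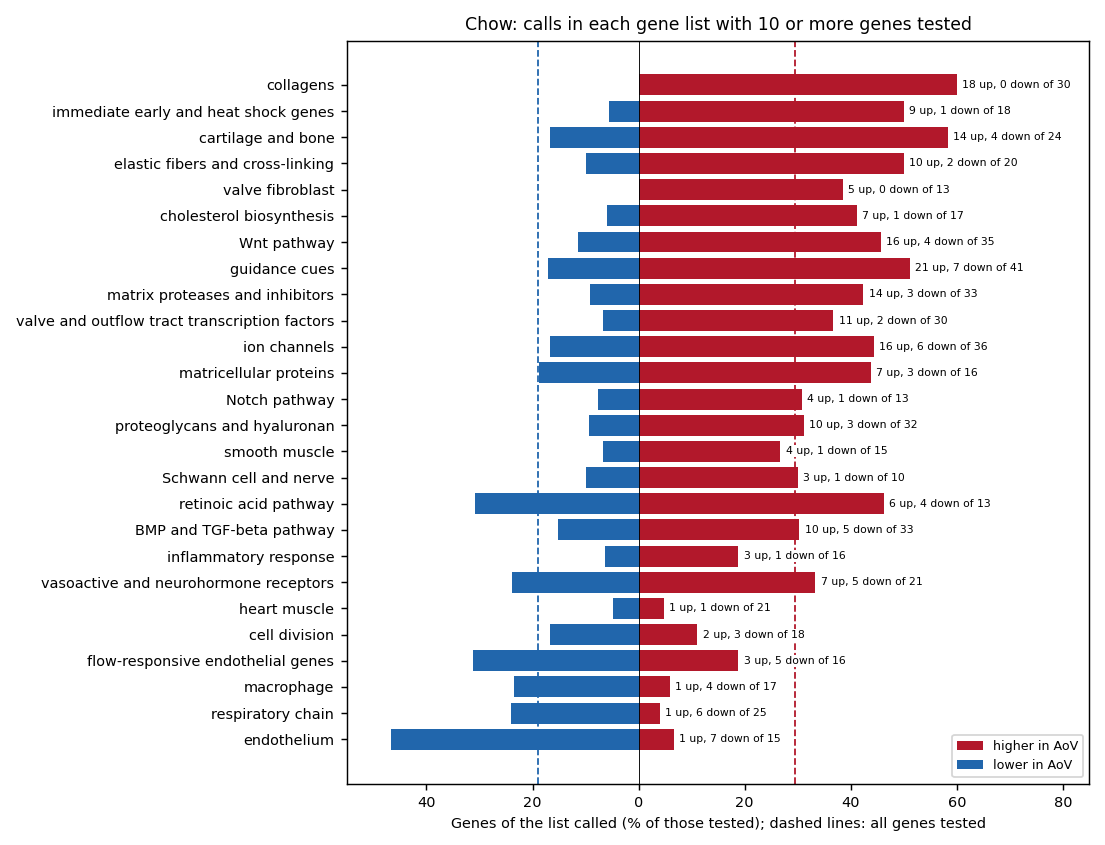
Percent of the tested genes of each list that were called higher (red, right) or lower (blue, left) in the AoV of chow rabbits, for lists with 10 or more genes tested. Dashed lines show the percent of all genes tested, 29.4 higher and 18.9 lower. Collagens (18 higher, 0 lower of 30) and cartilage and bone genes (14 and 4 of 24) lay furthest to the right, and endothelium (1 and 7 of 15) furthest to the left.

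In 5 lists of developmental signaling, calls were read against the 29.4% higher and 18.9% lower of all genes, and those without the 3 rabbits against 18.8% and 3.35%. In the Wnt pathway, 16 of 35 genes (45.7%) were higher and 4 (11.4%) lower (median 0.71), and without the 3 rabbits 12 and 2 of 34. LGR6, an R-spondin receptor, was at 1.96 to 11.8 CPM in the AoV and 0 to 0.54 in the PV (4.43 ± 0.50, adjusted p = 0.002). The Wnt receptor genes FZD7 and FZD6 differed in opposite directions, with 3.60 to 13.6 against 0.76 to 1.49 CPM for FZD7 (2.88 ± 0.35) and 12.8 to 23.0 against 38.2 to 48.3 CPM for FZD6 (-1.24 ± 0.16, adjusted p = 0.002 for both). In the Notch pathway, 4 of 13 genes were higher and 1 lower (median -0.02), which was close to the 29.4% and below the 18.9% of all genes, and without the 3 rabbits 3 and 1. NOTCH3, the receptor of mural cells, was at 13.3 to 98.0 CPM in the AoV and 3.29 to 4.34 in the PV (3.49 ± 0.42, adjusted p = 0.002), and its target gene HEYL was higher at 1.82 ± 0.33 (adjusted p = 0.00359).

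In the BMP and TGF-beta pathway, 10 of 33 genes were higher and 5 lower (median 0.00), also close to all genes, and without the 3 rabbits 7 and 3. The BMP antagonist gene CHRD was at 8.93 to 55.4 and 0.97 to 2.26 CPM (3.69 ± 0.50, adjusted p = 0.00205), and SMAD7, an inhibitor of the pathway, was higher at 2.38 ± 0.30 (adjusted p = 0.002). In the retinoic acid pathway, 6 of 13 genes (46.2%) were higher and 4 (30.8%) lower, both above the shares of all genes, and without the 3 rabbits 4 and 2 of 13. The retinol transporter gene STRA6 was higher at 3.48 ± 0.50 (adjusted p = 0.00208), whereas ALDH1A2, an enzyme that makes retinoic acid, was lower, with 5.03 to 51.8 CPM in the AoV and 42.9 to 111 in the PV (-2.30 ± 0.42, adjusted p = 0.00352). Of 41 guidance cue genes, 21 (51.2%) were higher and 7 (17.1%) lower (median 0.71), and without the 3 rabbits 17 and 5, with the netrin receptor gene UNC5B higher at 3.52 ± 0.44 and the ephrin receptor gene EPHA4 lower at -2.25 ± 0.27 (adjusted p = 0.002 for both). With the axis as a covariate, LTBP2 was the 1 gene of these 5 pathway lists still called.

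The endothelin receptors differed in opposite directions. EDNRA, the constrictor receptor of smooth muscle, was at 14.7 to 21.4 CPM in the AoV (median 15.3) and at 4.34 to 15.2 in the PV (median 6.56), a log2 fold change of 1.29 ± 0.21 (adjusted p = 0.0024). EDNRB, the receptor found on endothelium and melanocytes, was at 5.49 to 14.9 CPM in the AoV (median 7.10) and at 14.9 to 40.1 in the PV (median 28.1), with -1.80 ± 0.24 (adjusted p = 0.00205). The direction was the same in all 7 rabbits for both genes, and both remained called without the 3 rabbits. The muscarinic receptor gene CHRM3 was also lower (-2.09 ± 0.32, adjusted p = 0.00224). Of 21 vasoactive and neurohormone receptors, 7 (33.3%) were higher and 5 (23.8%) lower, both close to the 29.4% and 18.9% of all genes, and without the 3 rabbits 5 and 5 of 21, against 18.8% and 3.35%. Among 36 ion channel genes, 16 (44.4%) were higher and 6 (16.7%) lower, against 29.4% and 18.9% of all genes, and without the 3 rabbits 9 and 4 of 36, against 18.8% and 3.35%. The higher genes included the T-type calcium channel gene CACNA1G, at 6.09 to 68.9 against 0.70 to 2.94 CPM (3.97 ± 0.47, adjusted p = 0.002).

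Of 17 genes of cholesterol synthesis and uptake, 7 (41.2%) were higher in the AoV and 1 (5.88%) lower, against 29.4% and 18.9% of all genes, and the median was 0.17. In the other 4 rabbits 5 were higher and 0 lower, against 18.8% and 3.35% of all genes (median 0.10). SREBF2, the transcription factor of the pathway, was at 58.9 to 558 CPM in the AoV and 11.4 to 20.5 in the PV (3.53 ± 0.50, adjusted p = 0.00207), and without the 3 rabbits its log2 fold change was 2.52 (adjusted p = 0.00466). Of 18 immediate early and heat shock genes, 9 (50%) were higher and 1 (5.56%) lower, against 29.4% and 18.9% of all genes (median 1.11). EGR1, an early factor of the response to many stimuli, was at 79.5 to 348 and 13.0 to 58.7 CPM (2.76 ± 0.56, adjusted p = 0.00513). Without the 3 rabbits, 3 of 18 were higher, a share near the 18.8% of all genes, 0 were lower, and EGR1 was not called (1.70, adjusted p = 0.121). None of the genes of these 2 lists was called with the axis as a covariate. Of 16 inflammatory genes, 3 (18.8%) were higher and 1 (6.25%) lower, against 29.4% and 18.9% of all genes. Of 25 nuclear genes of the respiratory chain, 1 (4%) was higher and 6 (24.0%) were lower, against the same 29.4% and 18.9%. With the heart muscle score as a covariate 13 of the 25 were lower, against 2327 of the 13687 genes tested. Without the 3 rabbits, 1 respiratory chain gene was higher and 0 lower, against 18.8% and 3.35% of all genes.

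Markers of other cell types moved to different degrees. The heart muscle score was 4.37 ± 1.76 in the AoV and 3.00 ± 2.29 in the PV (SD, n = 7), and of 21 genes 1 (MYL4) was higher and 1 (SLC8A1) lower, with a median log2 fold change of 2.22. With this score as a covariate, 5946 of the 6609 DEGs remained called in the same direction. Of 13 valve fibroblast markers, 5 (38.5%) were higher and 0 lower, and of 7 cartilage cell markers 5 (71.4%) were higher and 1 (14.3%) lower, against 29.4% and 18.9% of all genes. The smooth muscle score was 6.06 ± 0.36 and 5.50 ± 0.46, with 4 of 15 genes higher (26.7%) and 1 lower (6.67%). MYH11, the smooth muscle myosin, was not a DEG (0.65 ± 0.45, adjusted p = 0.234), but without rabbit D it was higher (0.99, adjusted p = 0.0147). Of 17 macrophage genes, 1 was higher and 4 (23.5%) were lower, against 18.9% of all genes. CSF1R, the receptor for a macrophage growth factor, was higher (0.74 ± 0.21, adjusted p = 0.017), and CD68, a lysosomal macrophage marker, differed by 0.58 ± 0.19 (adjusted p = 0.0294, a fold change under 1.5). MRC1 and CD163, markers of resident macrophages, were lower in 6 of 7 rabbits (-1.16 ± 0.35, adjusted p = 0.0217, and -1.01 ± 0.32, adjusted p = 0.0255). Without the 3 rabbits neither was called, at -0.66 (adjusted p = 0.329) for MRC1 and at -0.99 (adjusted p = 0.278), nearly the same size, for CD163. ALAS2, the heme synthesis enzyme of red cells and the 1 red blood cell gene tested, was higher in the AoV of all 7 rabbits (3.67 ± 0.76, adjusted p = 0.00553), and was not called without the 3 rabbits (2.87, adjusted p = 0.0976). The part of these cell types in the results above was not tested, other than by the heart muscle score.

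The comparison was repeated in the Lard rabbits, which share no library with the chow rabbits. There 3420 of 13860 genes (24.7%) were higher in the AoV and 915 (6.60%) lower, and the AoV again lay higher on the axis, at -0.13 to 1.79 against -1.29 to -0.65. Of the 6609 chow DEGs, 3728 were also DEGs in the same direction on Lard, which was 56.4% of the chow and 86.0% of the Lard DEGs. Of the 110 named DEGs, 100 were called again and 86 were called both on Lard and in chow without the 3 rabbits. CILP was at 221 ± 67.5 CPM in the AoV and 31.2 ± 17.7 in the PV of Lard rabbits (SD, n = 7), with a log2 fold change of 2.93 (adjusted p = 1.56e-05). ACAN was at 316 ± 114 and 69.4 ± 33.7 CPM, and TEK at 65.8 ± 45.4 and 342 ± 43.4. In these rabbits 18 of 29 collagens were higher and 0 lower, and 9 of 15 endothelial genes were lower and 1 higher. The heart muscle list had a median log2 fold change of -2.89 on Lard against 2.22 on chow, with 0 higher and 5 lower of 21. On Lard, 1 gene was called when the axis was a covariate.

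**Figure D5:**
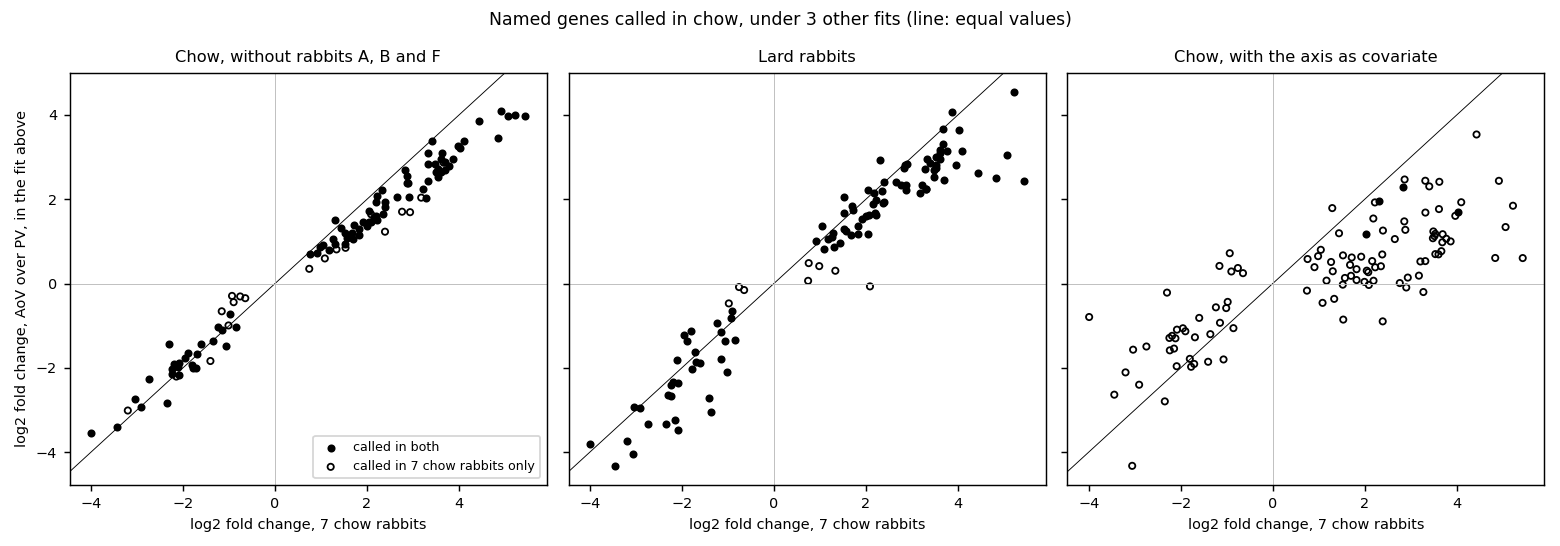
log2 fold changes of the 110 named DEGs in 7 chow rabbits (x axis) against 3 other fits (y axis): 4 chow rabbits, the Lard rabbits, and the chow rabbits with the axis as a covariate. Filled points were called in both fits, 90, 100 and 4 of the 110, and 14 of the 110 changed sign with the covariate. Of all 6609 DEGs, 44.3%, 56.4% and 0.106% were called again in the same direction, and 2823 kept their sign with the covariate.

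No gene was called as differing between Lard and chow in its AoV to PV difference, among 14740 genes tested as an interaction in edgeR. The smallest adjusted p was 0.561, 1045 genes had an unadjusted p under 0.05, and the count was also 0 with DESeq2 size factors. The difference of the left and right outflow valves was then compared with that of the mitral and tricuspid valves in chow rabbits. It differed in 1218 of 15013 genes (8.11%, adjusted p under 0.05 in edgeR). With rabbit G left out 126 genes were called, and the count was 0 with the heart muscle score as a covariate (6271 at an unadjusted p under 0.05).

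The TV of rabbit A had 0.0373% mitochondrial mRNA, so that it too stood apart, and 902 genes were called without rabbits A, B and F. THBS4, a called gene, had mean levels of 102 ± 49 and 15.4 ± 8.43 CPM in the AoV and PV (SD). In the MV and TV it had 34.5 ± 15.5 and 36.7 ± 33.0 CPM, a log2 difference between the differences of 2.54 (adjusted p = 0.00802). COL15A1 had 304 and 48.5 against 280 and 222 CPM (2.15, adjusted p = 0.00416), and MSX2 had 6.49 and 2.89 against 7.85 and 11.03 CPM (1.74, adjusted p = 0.00187). VCAN had 6299 ± 1751 and 6241 ± 991 CPM in the AoV and PV but 7893 ± 924 and 3657 ± 857 in the MV and TV (-1.09, adjusted p = 0.0107). For CILP, ACAN, BGN and SOX9 the test of this difference was not passed (0.38, 0.35, 0.29 and 0.26, adjusted p = 0.541, 0.544, 0.645 and 0.718), nor was it for TEK and PECAM1 (-0.74 and -0.62, adjusted p = 0.446 and 0.631).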

How the data were processed

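The authors processed the reads in nf-core/rnaseq against OryCun2.0 with the Ensembl annotation. The deposited values are whole-number counts of read pairs per gene, not normalized, in 1 table for each of 2 plates (29587 genes). The submitters' processing notes name bcl2fastq 2.20. The study reports the default settings of that pipeline apart from trimming options, and it does not name the strand setting of the counting. All 134 count columns were assigned to samples by their labels.

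In R 4.3.3, edgeR 4.0.16 was run with filterByExpr (minimum count 10, minimum total 15), TMM scaling, robust dispersion, and the rabbit as a block, since the 2 valves of a rabbit carry the same animal number. The pairing was checked on the counts. Deviations from the valve means correlated at a median of 0.069 within and -0.021 between rabbits, and 3 of 7 pairs exceeded 0.1. Rabbits B and E had negative values (-0.182 and -0.112), so this check did not establish the pairing, which rests on the animal numbers. DEGs had a Benjamini-Hochberg adjusted p under 0.05 and a fold change over 1.5, and interactions an adjusted p under 0.05. SE is the log2 fold change divided by the square root of F. CPM used TMM-scaled library sizes, and list scores were mean log2 CPM (prior count 2). Genes were found by symbols carried by 1 gene (13065 genes). The fit was tested on simulated data in which few genes were changed and libraries shared no axis. There it called 12 of 12997 unchanged genes, 25 of 49 genes changed 1.5-fold and 49 of 49 changed 4-fold. This test could not show what the axis does to the real calls. P-values measure the spread between rabbits.

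The genes and lists were chosen with earlier results of these data known. In each direction, the rule named the 10 DEGs of lowest p and the 5 of largest change that carry a symbol. It also named up to 3 DEGs per list by p, the first 2 genes of each marker list, and a set of valve genes. Some genes that the rule names are not reported here. Other named genes were chosen after their values were seen. Alternatives were no block, DESeq2 1.42.0 and its size factors, no filter, adjusted p alone, a test against 1.5-fold, plate and heart muscle covariates, rabbits with both valves on 1 plate, larger models, and each rabbit left out. Leaving out 3 rabbits, the mitochondrial share and the axis were added after seeing the data.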

Additional observations from a re-analysis of the deposited data

Results flagged for a closer look

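Among the sets of 7 differences of 123 named genes and 36 list scores, 9 held a rabbit far from the others by Dixon's test. Chance flags about 1 in 20 sets, and these are AoV minus PV differences on the log2 scale. Rabbit D accounted for 6 of them: PECAM1 (-4.79, others -2.57 to -1.08), CDH5 (-4.07, others -1.33 to -0.67), CHRM3 (-3.94, others -1.94 to -1.56), MLANA (-2.40, others -1.38 to -0.67), MYH11 (-2.31, others 0.22 to 1.90) and the endothelium score (-2.75, others -1.15 to -0.10). The AoV library of this rabbit also had the lowest endothelium score. The other 3 were STC1 in rabbit E (-0.44, others -4.25 to -2.65), BGLAP in C (0.92, others 2.12 to 2.67) and ADAMTS19 in G (-1.29, others -0.25 to 0.17).

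The AoV to PV difference of 22 named genes differed from their MV to TV difference in chow rabbits, in edgeR's test of the difference at an adjusted p under 0.05. Among all 15013 genes tested 8.11% were called, and 126 genes were called without rabbit G. On the log2 scale the AoV to PV difference was larger by 6.43 for CRACD, 5.96 for MYL4, 5.79 for LGR6, 4.58 for PROB1, 3.99 for ALAS2, 3.86 for KCNQ1, 3.58 for COL5A3, 2.94 for SOX11, 2.54 for THBS4, 2.49 for ANK1, 2.42 for NOTCH3, 2.25 for EDNRA, 2.15 for COL15A1, 1.74 for MSX2 and 1.36 for UQCRC1. The AoV to PV difference minus the MV to TV difference was -2.46 for LYPD6, -2.29 for ADH6, -1.66 for EFEMP1, -1.59 for EDNRB, -1.47 for PI15, -1.09 for VCAN and -0.89 for MGP. MYL4, an atrial myosin gene, had 734 ± 409 CPM in the TV (SD, n = 7). No gene was called in this test with the heart muscle score as a covariate, where 6271 had an unadjusted p under 0.05.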

How the results depend on the processing

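The 6609 chow DEGs stayed within 1.5-fold in 8 other fits and when any 1 rabbit was left out (4989 to 7197). The number was 3087 in the test against 1.5-fold, 3239 with plate as a covariate, 1764 in the rabbits with both valves on 1 plate, 3079 without the 3 rabbits, 3497 with the mitochondrial share and 12 with the axis. The 2590 lower genes moved further than the 4019 higher ones: they were 1677 without rabbit A (3312 higher), 327 in the test against 1.5-fold (2760), 467 without the 3 rabbits (2612) and 655 with the mitochondrial share (2842), and with plate all but 2660 of the 3239. Without the rabbit block it was 6465, of which 6160 were shared, and with DESeq2 7322. On Lard, 4335 DEGs became 1895 with the mitochondrial share and 1 with the axis, and 3832 to 4676 when a rabbit was left out. The 1218 genes that differed from the mitral and tricuspid valves (8.11% of those tested) became 2720 (18.1%) without the replicate block, 2.29% without the filter (397 with a larger and 180 with a smaller difference) and 0 with the heart muscle score. With a rabbit left out they ranged from 126 (0.834%, without G) to 736 (4.89%, without D), with 580 without A, 435 without B, 381 without C, 674 without E and 497 without F. The Lard against chow count was 0 throughout. Rabbits A and F had the AoV on plate 2 and the PV on plate 1.

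With the axis as a covariate, 14 of the 110 named DEGs changed sign without being called: ZFP36 (-0.20), PLK1 (-0.36), MCM3 (0.29), MCM2 (-0.46), NDUFV2 (0.25), SLC8A1 (0.72), MYL4 (-0.03), UPK3B (-0.90), CSF1R (-0.17), MRC1 (0.42), ZAP70 (-0.86), NGFR (-0.09), GATA4 (-0.03) and MGP (0.37). Over all 6609 DEGs, only 2823 kept their sign in that fit. Across the 13687 genes, log2 fold change and axis loading correlated at 0.936, a description over genes that share these libraries. The cause was not tested. Of 110 named DEGs, 90 remained called without the 3 rabbits, 96 with plate, 86 within plates, 109 with the heart muscle score and 4 with the axis. Of all 6609 DEGs, 44.3%, 48.4%, 26.3%, 90% and 0.106% were called again in the same direction in these fits. Most named DEGs were chosen by low p or large change in these rabbits, so their higher shares are no separate support.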

Other observations

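Of 10 Schwann cell and nerve genes tested, 3 (30.0%) were higher in the AoV, L1CAM and NGFR among them, against 29.4% of all genes, and 1 (10.0%), ELAVL4, was lower, against 18.9%. NGFR differed by -0.09 when the axis was a covariate. L1CAM, a neural cell adhesion gene, was at 12.19 to 80.0 CPM in the AoV and 7.502 to 13.95 in the PV (1.70 ± 0.30, adjusted p = 0.00332 in edgeR). Of 6 melanocyte genes, 0 were higher and 2 (33.3%), EDNRB and MLANA, were lower. MLANA, a melanosome protein, was at 0.75 to 2.27 CPM in the AoV and 2.01 to 5.53 in the PV (-1.36 ± 0.27, adjusted p = 0.00459), and both were called again without the 3 rabbits and on Lard. Of 18 cell division genes, 2 (11.1%) were higher and 3 (16.7%) lower, and without the 3 rabbits 0 were called, against 18.8% and 3.35% of all genes. None of the 4 HOX genes tested was called. Of 7 adipocyte genes 3 (42.9%) were higher, of 6 mesothelium and epicardium genes 2 (33.3%) were higher and 1 (16.7%), PKHD1L1, was lower, and of 4 T and B cell genes 2 (50%) were higher, against 29.4% higher and 18.9% lower among all genes. None of the 2 neutrophil genes and the 1 mast cell gene was called. PAX5, a B cell factor, was at 1.85 to 16.9 CPM in the AoV and 0.06 to 0.86 in the PV (3.87 ± 0.53, adjusted p = 0.00205).

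With the axis as a covariate, the 12 genes called were CILP, THBS4, ACAN, LTBP2, ANXA8, KIAA1755, STK38L and 1 unnamed gene, higher in the AoV, and FLT4, SPOCK2, FAM107A and 1 unnamed gene, lower. STK38L, SPOCK2, FAM107A, FLT4 and 1 of the unnamed genes were not DEGs without it. An unnamed gene, ENSOCUG00000039243, took 2.48% to 21.6% of the counts of the chow AoV libraries and 0.703% to 1.18% of the PV libraries.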
